A study of Mus musculus with 13 samples.

Results

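The WNT ligands, the Frizzled receptors and 2 families of secreted WNT antagonists were followed through growing and growth-arrested mouse melanocytes and melanocytic lesions. They comprised every gene with a probe set of its own on the array whose symbol opened with Wnt, Fzd, Sfrp or Dkk and a digit: 38 of the 19937 genes measured. These were 19 WNT ligands, 10 Frizzled receptors, 4 secreted Frizzled-related proteins (SFRP), 4 Dickkopf proteins (DKK) and Fzd10os, a transcript from the strand opposite Fzd10, which is no receptor and entered through its symbol. Where a gene had more than 1 probe set, the one with the highest mean over the 6 groups was used, which concerned 1 of these genes, Wnt4.

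RNA from 13 mouse samples had been amplified and hybridised to Affymetrix arrays, 1 sample per array. The melanocytes had been purified by flow sorting. They comprised 2 samples of genotype Cdkn2a/Braf at day 19, described in the labels as not yet arrested, 2 of the same genotype at day 50, described as arrested, and 2 Cdkn2a-only samples at day 19 with wild-type Braf, the control. The lesions were tissue that had not been cultured: 2 Cdkn2a/Braf melanomas, 2 Cdkn2a/Braf/Lkb1 melanomas and 3 samples of Lkb1/Braf melanocytic proliferations, labelled as pooled. Cdkn2a encodes cell-cycle inhibitors, Braf a kinase of the ERK pathway that is mutant in these animals according to the series' title, and Lkb1 a kinase upstream of AMPK. Every group except the Lkb1/Braf proliferations carried the Cdkn2a alteration, the control included, and every group except the Cdkn2a-only control carried the Braf alteration. The sources used here do not give the promoter that drove recombination, the animals' ages or the event from which days were counted.

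WNT proteins are lipid-modified ligands that leave the cell with the help of the carrier Wls and bind a Frizzled receptor together with a coreceptor such as Lrp5 or Lrp6, or Ror2. Binding to Lrp5 or Lrp6 stabilises beta-catenin, which acts with Lef1 and other TCF-family factors on targets such as Axin2, Nkd1 and Mitf; other ligands, of which Wnt5a is the best known, act mainly without beta-catenin. SFRP proteins bind WNT ligands outside the cell, and the DKK proteins Dkk1, Dkk2 and Dkk4 bind Lrp5 and Lrp6, while Dkk3 is a divergent relative. In skin, WNT signals specify melanocytes from the neural crest and act on the melanocyte stem cells of the hair follicle.

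The largest called differences below were those of Dkk2 and Sfrp2, and their promoter windows are printed for that reason, as the 250 bases before the RefSeq start of each gene (GRCm38.p6, 5′ to 3′ on the gene's strand). Both genes lie on chromosome 3, Sfrp2 with its window at chr3:83766071-83766320 and Dkk2 with its window at chr3:132085042-132085291, both on the plus strand. Capitals mark matches to TATAAA, the motif bound by TBP, and to CTTTGA or CTTTGT (the TCF/LEF core), searched on both strands; neither set of letters contains the other.
Sfrp2: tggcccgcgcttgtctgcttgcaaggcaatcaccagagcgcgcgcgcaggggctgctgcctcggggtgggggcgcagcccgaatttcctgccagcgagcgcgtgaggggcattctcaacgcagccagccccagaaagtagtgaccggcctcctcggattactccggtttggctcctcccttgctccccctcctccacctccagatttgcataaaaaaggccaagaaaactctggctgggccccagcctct
Dkk2: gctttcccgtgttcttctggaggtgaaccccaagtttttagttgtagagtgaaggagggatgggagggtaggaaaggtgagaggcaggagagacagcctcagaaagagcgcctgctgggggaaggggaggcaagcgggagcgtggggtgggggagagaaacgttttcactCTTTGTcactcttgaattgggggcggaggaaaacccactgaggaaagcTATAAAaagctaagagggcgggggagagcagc
The Dkk2 window held 1 match to TATAAA, present in 12.4% of the 32851 windows in the table, and 1 to the TCF/LEF core, present in 27.6%. The Sfrp2 window held neither, and neither window held TGANTCA (AP-1, 6.75% of windows) or CACGTG or CATGTG (an E-box of the kind Mitf binds, 17.6%). The Sfrp2 window counted 16 CpG dinucleotides and the Dkk2 window 7, against a median of 22.0 over the 28 windows of the 25 members found in the table and 6.0 over all windows. Sfrp1, Sfrp4, Wnt5a, Dkk3, Fzd3 and Fzd6 were not among those found. A match describes the letters and was not tested as a binding site.

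Values are given as log2 of the array intensity plus 1, and a difference of 1 is a change of intensity by a factor of about 2 that is understated in dim genes. A difference was called where limma's moderated test, adjusted by Benjamini-Hochberg over all 19937 genes, gave an adjusted p under 0.05; the verbs rose and fell are kept for called differences, and SE is the standard error of the difference. Probe sets differ in affinity, so levels were compared between samples for 1 gene and not between genes. As a rough mark of dim signal, the 95th percentile of the group means of 1190 olfactory and vomeronasal receptor genes was taken in each group, 5.63 to 6.32. Between 21 and 26 of the 38 members lay above it in a group, 16 in all 6 groups and 11 in none. Those 11 were 6 ligands (Wnt1, Wnt3, Wnt7a, Wnt8a, Wnt8b and Wnt11), Fzd8, Fzd10, Sfrp5, Dkk1 and Dkk4, and for them the data give little beyond a dim signal.

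Array medians were alike, 68.3 to 80.5 in intensity, but the spread of genes within an array was not: the interquartile range of log2 values was 1.93 to 1.94 in the day 50 melanocytes, 2.00 to 2.11 in the Lkb1/Braf proliferations and 2.45 to 2.89 in the other groups. Between the pair of day 50 samples the SD of the difference over genes was 0.70, against 0.27 to 0.40 between replicates of the other groups. The melanocyte list chosen for checking the samples (12 genes, among them Tyr, Dct, Pmel and Mlana) had a summed intensity of 51090 to 57870 at day 19, 26520 to 34350 at day 50, 3607 to 4022 in the Lkb1/Braf proliferations and 846 to 1239 in the melanomas, where Tyr stood at 3.99 to 4.45, under the dim mark. The pigment-cell markers were thus low in the tissue labelled melanoma, and the groups are called melanoma here after their labels. Of the 12 genes 11 fell in the Cdkn2a/Braf melanomas against day 19 (5.46% of all genes), all but Sox10. Against day 50 also 11 fell (16.9% of all genes), Sox10 among them. Which cells the melanomas held was not tested. Fewer cells of a type and less RNA per cell cannot be told apart in such bulk samples.

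**Figure D1:**
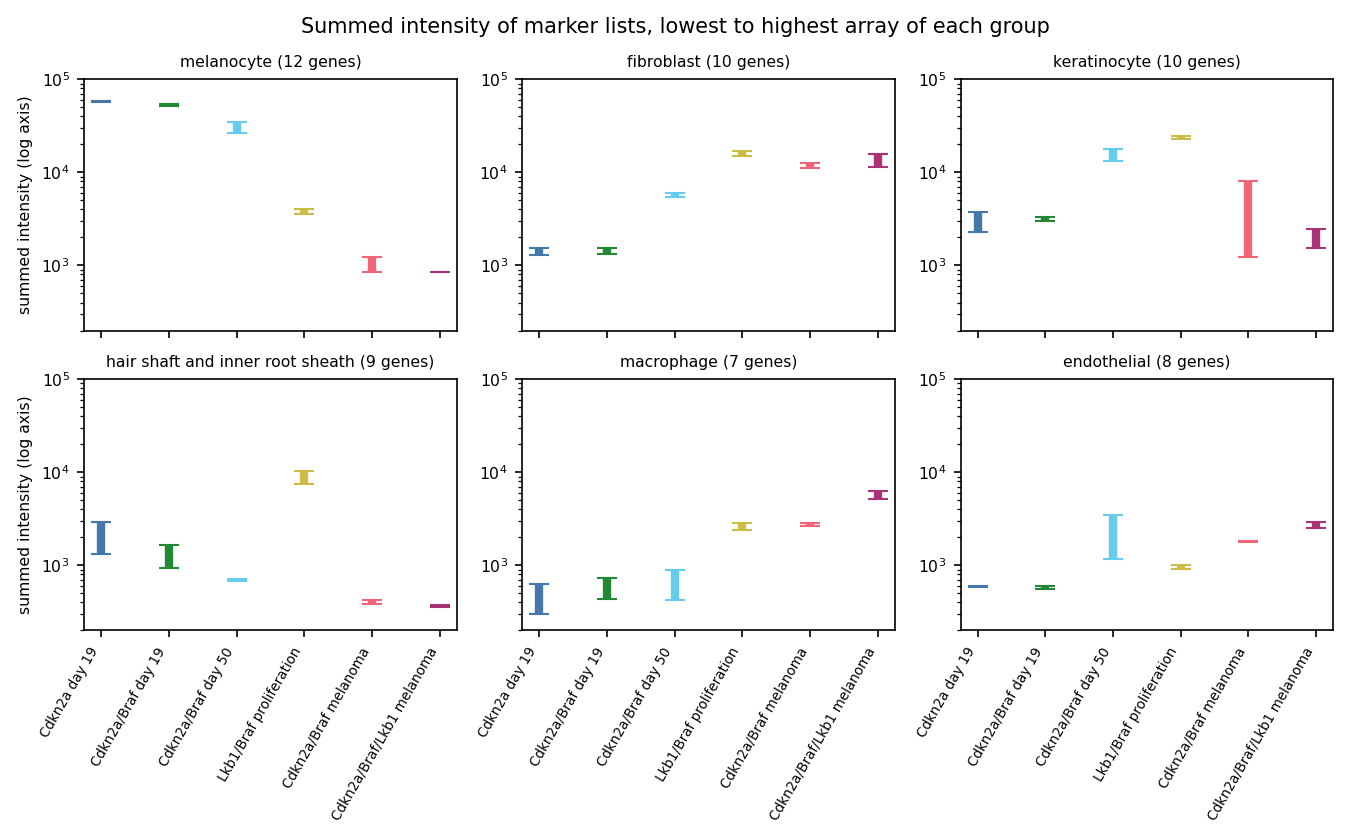
Summed array intensity (log axis) of 6 marker lists by group; each bar spans the lowest to the highest array of the group. The melanocyte sum lies between 51090 and 57870 at day 19 and between 846 and 1239 in the melanomas, the keratinocyte sum is highest in the Lkb1/Braf proliferations (22970 to 24640), and the fibroblast sum is lowest in the day 19 melanocytes (1285 to 1557).

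Between day 50 and day 19, 6 of the 38 members were called where 25.6% of all genes were: 4 rose (11.1% of genes) and 2 fell (14.5%), 3 of them by at least 1 (10.2%). At day 19, Cdkn2a/Braf and Cdkn2a-only melanocytes differed in 0 members, with 0.291% of genes called (0.236% higher, 0.0552% lower); 5 members (Fzd2, Sfrp1, Sfrp4, Wnt2 and Wnt4) had an unadjusted p under 0.05 in limma, against 1446 genes or 7.25% of all. The Cdkn2a/Braf/Lkb1 melanomas differed from the Cdkn2a/Braf melanomas in 2 members, both higher and by at least 1, where 2.56% of genes were called, 1.83% as higher, 0.732% as lower and 1.59% with a difference of at least 1. Against the Lkb1/Braf proliferations, 25 members were called in the Cdkn2a/Braf/Lkb1 melanomas with 40.6% of genes, 8 higher (20.0% of genes) and 17 lower (20.6%), 7 of them by at least 1 (13.3%). In the Cdkn2a/Braf melanomas 7 were called with 21.5% of genes, 4 higher (12.6%) and 3 lower (8.88%), 3 by at least 1 (8.36%). The Cdkn2a/Braf melanomas differed from the day 50 melanocytes in 13 members with 32.4% of genes, 3 higher (15.5%) and 10 lower (16.9%), 2 by at least 1 (10.9%). They differed from the day 19 melanocytes of the same genotype in 6 members with 12.6% of genes, 5 higher (7.17%) and 1 lower (5.46%), 5 by at least 1 (7.89%). These comparisons share groups, so a gene that is high in one lesion type appears in several of them. In all 59 of these member calls the arrays of the groups compared did not overlap. With 2 or 3 arrays a group this follows largely from the calling and adds no support. Members that were not called also lacked overlap, among them Dkk1, Dkk4 and Fzd2 between day 50 and day 19.

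**Figure D2:**
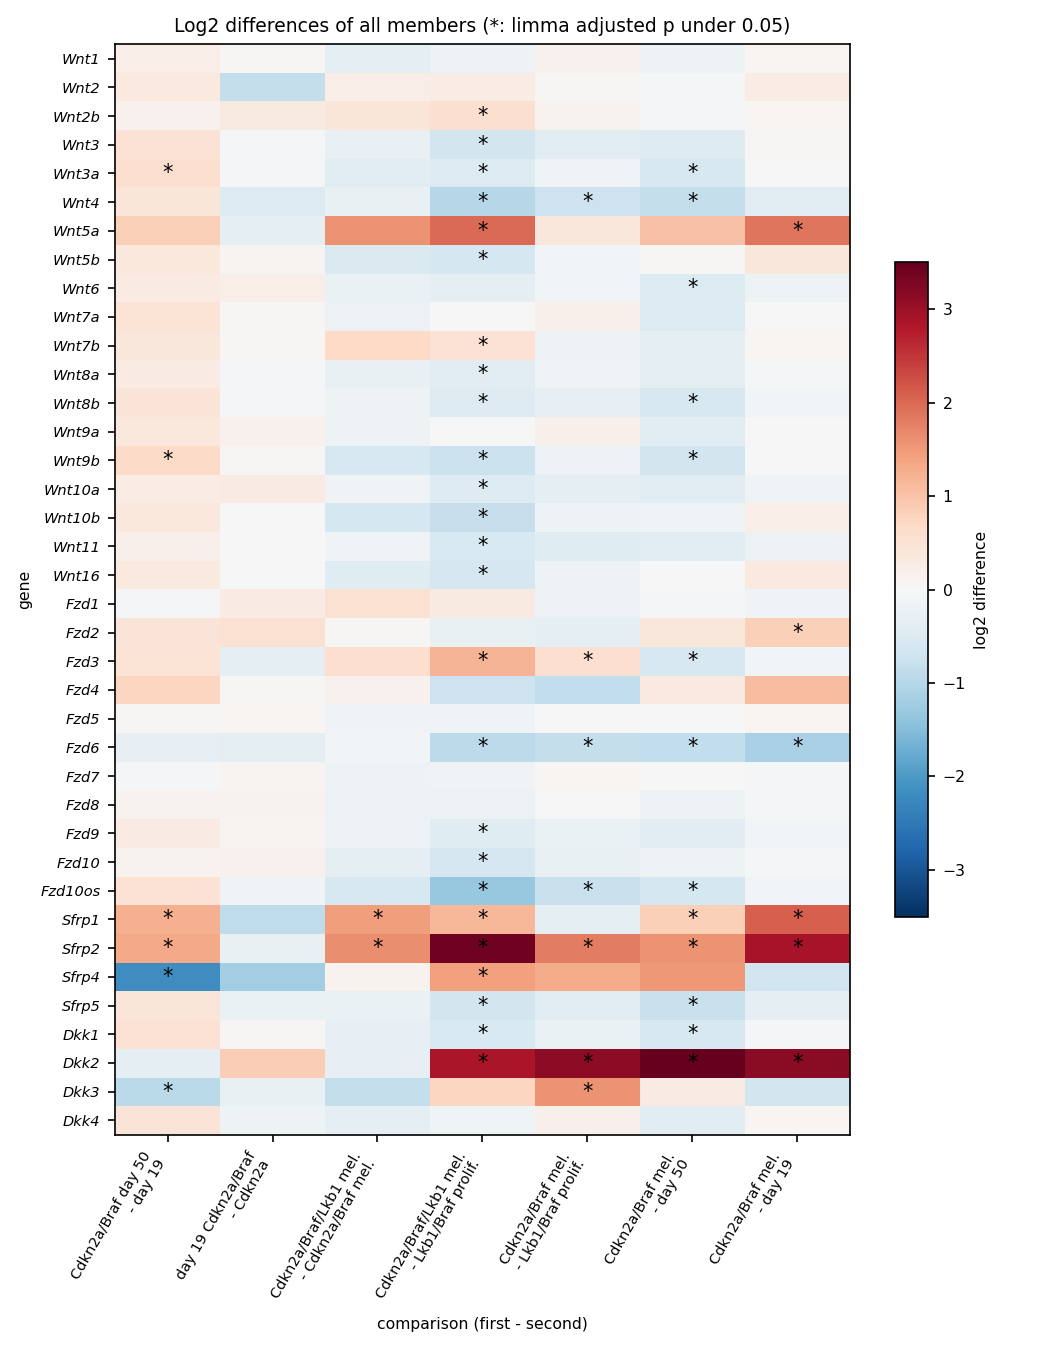
Log2 difference of each of the 38 members (vertical axis) in the 7 comparisons (horizontal axis), red where the first-named group is higher; a star marks a limma adjusted p under 0.05. The deepest colours belong to Dkk2 and Sfrp2 in the melanoma columns, and the column of the day 19 melanocytes with and without Braf holds no star.

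Counts moved when single arrays were left out, and a count can hide calls that were lost beside others that were gained. Between day 50 and day 19 the 6 calls became 1 and 2 without the first and the second day 19 array, and 3 and 10 without the first and the second day 50 array. Without the second day 50 array Dkk3, Sfrp2 and Wnt3a were lost, while Dkk1, Fzd2, Fzd3, Wnt3, Wnt4, Wnt5b and Wnt7a were gained. Between the melanoma genotypes Sfrp1 and Sfrp2 were both lost without the second Cdkn2a/Braf melanoma, and Wnt5a was called in their place. Without the first Cdkn2a/Braf/Lkb1 melanoma Sfrp2 was lost, and Dkk3 and Wnt7b were gained. The 25 calls against the Lkb1/Braf proliferations became 11 without the first Cdkn2a/Braf/Lkb1 melanoma, and the 7 calls became 3 without the second Cdkn2a/Braf melanoma. Against day 50 the 13 calls became 6 and 4 without the first and second Cdkn2a/Braf melanoma and 6 without the first day 50 array. Against day 19 the 6 calls became 3 without the first day 19 array, and 4 without the first melanoma.

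Among the ligands, Wnt5a, which can signal through Ror2 without beta-catenin, carried the largest differences. It measured 5.28 and 5.28 in the day 19 Cdkn2a/Braf melanocytes, 5.67 and 5.56 in the Cdkn2a-only melanocytes and 6.26 and 5.99 at day 50. In the lesions it measured 6.61, 6.77 and 6.91 in the Lkb1/Braf proliferations, 6.23 and 8.08 in the Cdkn2a/Braf melanomas and 9.17 and 8.30 in the Cdkn2a/Braf/Lkb1 melanomas. Both Cdkn2a/Braf/Lkb1 melanomas lay above every other array, while the 2 Cdkn2a/Braf melanomas straddled the Lkb1/Braf proliferations. Wnt5a rose in the Cdkn2a/Braf/Lkb1 melanomas over the Lkb1/Braf proliferations by 1.97 (SE 0.43, adjusted p = 0.00604, 3.92-fold) and in the Cdkn2a/Braf melanomas over day 19 by 1.88 (SE 0.48, adjusted p = 0.0272). The first call was lost without the first Cdkn2a/Braf/Lkb1 melanoma (adjusted p = 0.0689); the second was lost without the second Cdkn2a/Braf melanoma (0.95, adjusted p = 0.104) and without either day 19 array. The day 19 values lay under the dim mark, so the size of that second difference is uncertain. The difference of 1.58 between the melanoma genotypes was not called (adjusted p = 0.11), except in the fit without the second Cdkn2a/Braf melanoma. The fibroblast sum was 1340 to 1535 in the day 19 Cdkn2a/Braf melanocytes, 11110 to 12620 in the Cdkn2a/Braf melanomas and 11350 to 15920 in the Cdkn2a/Braf/Lkb1 melanomas. In the Lkb1/Braf proliferations the sum was 15120 to 16800. Of the 10 fibroblast genes, 9 were higher in the Cdkn2a/Braf melanomas than at day 19. Against the proliferations 5 of the 10 rose and 2 fell in the Cdkn2a/Braf/Lkb1 melanomas, where 20.0% of all genes rose and 20.6% fell. That split became 1 and 2 under quantile normalization and 1 and 5 with a common interquartile range. The part of this list in the Wnt5a differences was not tested.

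Wnt4, a ligand of epithelia and the gonad, was the ligand with the clearest fall. It measured 8.15, 8.17 and 8.21 in the Lkb1/Braf proliferations, 7.44 and 7.45 in the Cdkn2a/Braf melanomas and 7.02 and 7.36 in the Cdkn2a/Braf/Lkb1 melanomas. Every melanoma lay below every proliferation and below every melanocyte array, of which the lowest was 7.81. It fell by 0.99 in the Cdkn2a/Braf/Lkb1 melanomas (SE 0.16, adjusted p = 0.00131) and by 0.73 in the Cdkn2a/Braf melanomas (adjusted p = 0.0104) against the proliferations, and by 0.83 in the Cdkn2a/Braf melanomas against day 50. With the mean of its 2 probe sets in place of the higher one, the last 2 of these calls were lost. The first Cdkn2a/Braf melanoma and the second each also ended the call against the proliferations when left out. The keratinocyte sum was 22970 to 24640 in the proliferations against 1242 to 8090 in the Cdkn2a/Braf and 1532 to 2484 in the Cdkn2a/Braf/Lkb1 melanomas. In the melanocytes the sum was 2280 to 3784 (Cdkn2a-only, day 19), 2994 to 3354 (Cdkn2a/Braf, day 19) and 13320 to 17650 (day 50). In the same order of groups Wnt4 measured 8.48 and 8.17, 7.81 and 7.90, and 8.50 and 8.06. The part of this list in the Wnt4 differences was not tested.

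The other ligands moved little. Between the Cdkn2a/Braf/Lkb1 melanomas and the Lkb1/Braf proliferations, 11 of the 19 ligands fell and 3 rose, where 20.6% of all genes fell and 20.0% rose. Beside Wnt5a the risers were Wnt2b (0.55) and Wnt7b (0.50). Beside Wnt4 the differences of the fallers ran from -0.37 (Wnt8a) to -0.80 (Wnt10b). The 11 falls became 4 without the first Cdkn2a/Braf/Lkb1 melanoma, 6 with arrays centred on their medians, and 5 each under quantile normalization and with a common interquartile range. The Wnt2b call was lost without either Cdkn2a/Braf/Lkb1 melanoma or the second proliferation, and the Wnt7b call without the second Cdkn2a/Braf/Lkb1 melanoma, the first proliferation or the third. Without further scaling, the median over the receptor genes taken as the dim mark was -0.24, that of the 12 members at or under the mark in both groups was -0.47, all 12 were below 0, and the median over all genes was -0.04. The receptor genes' median was -0.06 under quantile normalization and 0.62 with a common interquartile range. With other scalings the members' split of 8 risers and 17 fallers became 9 and 10 (arrays centred on their medians), 8 and 9 (quantile normalization) and 9 and 9 (a common interquartile range). The 4 and 3 of the Cdkn2a/Braf melanomas became 3 and 7 under quantile normalization, and the 4 and 2 of day 50 became 5 and 1 there and 6 and 1 with a common interquartile range. Of the falling ligands, Wnt4, Wnt5b, Wnt9b and Wnt10b were called under each of the alternatives and left-out arrays tried.

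In the day 50 melanocytes, all 19 ligands were above their day 19 value, by 0.15 to 0.84, but 16 under quantile normalization and 14 with a common interquartile range, and the receptor genes' median was 0.32, but 0.08 under quantile normalization and -0.40 with a common interquartile range. Only Wnt3a (0.58, adjusted p = 0.0364) and Wnt9b (0.67, adjusted p = 0.0112) were called, where 11.1% of all genes rose. The Wnt3a call was lost with each day 19 or day 50 array left out and under 5 of 9 alternatives, and the Wnt9b call was lost without either day 19 array. Between the Cdkn2a/Braf melanomas and day 50, 17 of 19 ligands were below 0 (15 under quantile normalization and with a common interquartile range). Of the 19, 5 fell (Wnt3a, Wnt4, Wnt6, Wnt8b and Wnt9b), where 16.9% of all genes fell. The receptor genes' median there was -0.37, but 0.20 with a common interquartile range. The 5 falls became 1 (Wnt4) without the second melanoma and 2 without the first melanoma or the first day 50 array, and those of Wnt3a and Wnt6 were lost with any 1 of the 4 arrays left out. Sorted cells were compared with tissue there, and material and disease state cannot be told apart.

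**Figure D3:**
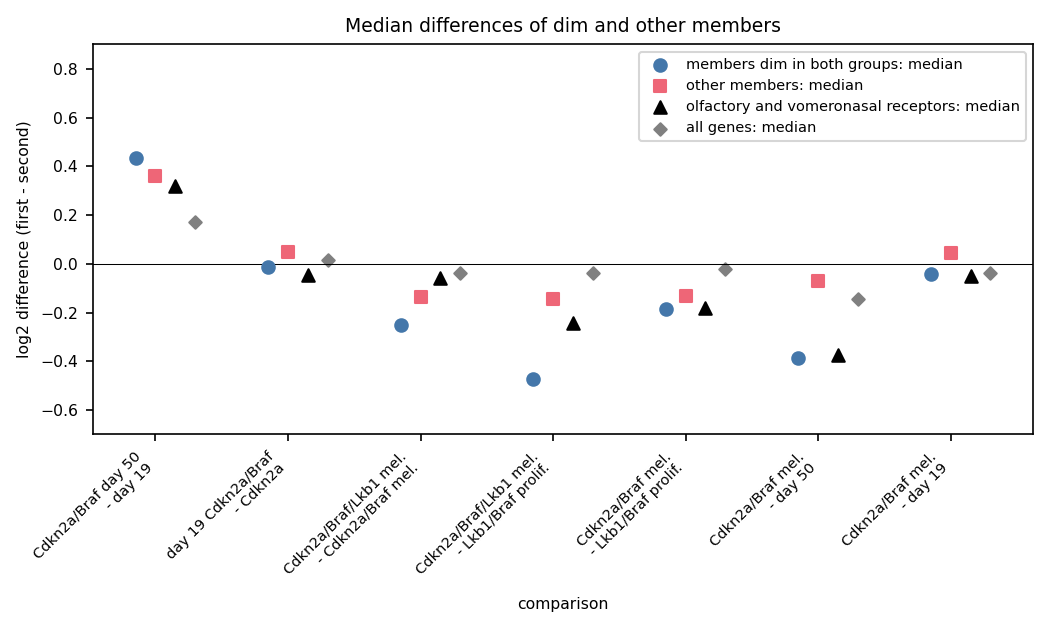
Median log2 difference in each comparison for members at or under the dim mark in both groups (circles), the other members (squares), the olfactory and vomeronasal receptor genes (triangles) and all genes (diamonds). In the comparison of day 50 with day 19 the dim members and the receptor genes are both above 0 (0.43 and 0.32), and in that of the Cdkn2a/Braf/Lkb1 melanomas with the Lkb1/Braf proliferations both are below 0 (-0.47 and -0.24). Values are without further scaling; with a common interquartile range the receptor genes' medians in these comparisons turn to -0.40 and 0.62.

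Wnt2 was the ligand that differed most between the genotypes at day 19: 5.68 and 6.22 with mutant Braf and 6.95 and 6.64 without. The arrays did not overlap, but the difference of -0.84 was not called (adjusted p = 0.17).

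Among the receptors, Fzd3 was lowest in the Lkb1/Braf proliferations and Fzd6 in the melanomas. Fzd3, a receptor of planar polarity and axon guidance, measured 7.92 and 7.71 in day 19 Cdkn2a/Braf melanocytes, 8.08 and 8.24 in the Cdkn2a-only melanocytes and 8.52 and 8.05 at day 50. It measured 6.96, 7.24 and 7.17 in the Lkb1/Braf proliferations, 7.77 and 7.66 in the Cdkn2a/Braf melanomas and 8.21 and 8.41 in the Cdkn2a/Braf/Lkb1 melanomas. The 3 proliferations were the lowest of all 13 arrays. Fzd3 was higher in the Cdkn2a/Braf/Lkb1 melanomas than in the proliferations by 1.19 (SE 0.16, adjusted p = 0.000496), a call made under every alternative and left-out array tried. In the Cdkn2a/Braf melanomas the difference was 0.60 (adjusted p = 0.0260), a call lost under quantile normalization, with a common interquartile range and in 4 of 5 runs without 1 array. Against day 50 it fell by 0.57 in the Cdkn2a/Braf melanomas, a call lost without either melanoma or the first day 50 array.

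Fzd6, a receptor of epidermal planar polarity and hair orientation, measured 8.23 and 7.86 in the day 19 Cdkn2a/Braf melanocytes, 8.82 and 7.93 in the Cdkn2a-only melanocytes and 7.77 and 7.74 at day 50. It measured 7.66, 7.74 and 7.78 in the Lkb1/Braf proliferations, 6.81 and 6.98 in the Cdkn2a/Braf melanomas and 6.68 and 6.93 in the Cdkn2a/Braf/Lkb1 melanomas. All 4 melanomas lay below the other 9 arrays. Fzd6 fell in the Cdkn2a/Braf melanomas by 1.15 against day 19 (SE 0.25, adjusted p = 0.0122) and by 0.83 against the proliferations (adjusted p = 0.0268), and in the Cdkn2a/Braf/Lkb1 melanomas by 0.91 against the proliferations (SE 0.23, adjusted p = 0.0103). The call against the proliferations in the Cdkn2a/Braf melanomas was lost with any 1 of the 5 arrays left out, the call against day 19 without the first day 19 array or the first melanoma, and the call in the other genotype without the first Cdkn2a/Braf/Lkb1 melanoma. Of 12 planar polarity genes, 3 fell in both comparisons with the proliferations, where 20.6% and 8.88% of all genes fell, and 0 rose. Celsr1, Celsr2 and Vangl2, core components that act with Fzd3 and Fzd6, fell by 1.03, 1.54 and 0.86 in the Cdkn2a/Braf/Lkb1 melanomas and by 0.59, 1.07 and 0.49 in the Cdkn2a/Braf melanomas. In the former 5 fell under quantile normalization and with a common interquartile range. In the latter the falls became 1 without the first melanoma or the second proliferation, and Celsr2 was the gene called in every run. The keratinocyte list, whose genes lie in the same epithelia, fell with them (9 and 7 of 10 genes), as did the hair shaft list (9 of 9 in both); their part was not tested.

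Of the other receptors, Fzd2 rose by 0.84 in the Cdkn2a/Braf melanomas against day 19 (adjusted p = 0.00689), from 6.01 and 6.18 to 7.11 and 6.77. Without the first day 19 array or the first melanoma that call was lost. Fzd4, the receptor for Norrin in vessels, ranged from 5.42 in the Cdkn2a-only melanocytes to 7.89 in the proliferations and was called in none of the 7 comparisons without further scaling. Fzd1, Fzd5 and Fzd7, which ranged over 7.87 to 8.76, 6.53 to 6.97 and 8.17 to 8.52 in the 13 arrays, were called in none of them either. Under quantile normalization Fzd7 was called in 4 comparisons and Fzd1 and Fzd4 in 1, with a common interquartile range Fzd7 was called in 3, and without the first Cdkn2a/Braf/Lkb1 melanoma Fzd4 was called in 1. Fzd9 and Fzd10 fell by 0.42 and 0.58 in the Cdkn2a/Braf/Lkb1 melanomas against the proliferations, beside the median of -0.24 of the receptor genes taken as the dim mark. The Fzd9 call was lost with arrays centred on their medians and in 4 of 5 runs without 1 array, and the Fzd10 call under quantile normalization, with a common interquartile range (-0.19, adjusted p = 0.323) and without the first Cdkn2a/Braf/Lkb1 melanoma. Fzd10os measured 6.94, 6.44 and 6.57 in the proliferations and 5.19 and 5.43 in the Cdkn2a/Braf/Lkb1 melanomas, with 5.95 and 5.81 in the Cdkn2a/Braf melanomas and 5.93 to 6.49 in the melanocytes. The Cdkn2a/Braf/Lkb1 melanomas were the lowest arrays, and it fell by 1.34 against the proliferations (SE 0.16, adjusted p = 0.000274), from above the dim mark to under it. In the Cdkn2a/Braf melanomas it fell by 0.77 against the proliferations (adjusted p = 0.00851), a call lost without the second Cdkn2a/Braf melanoma. The sources used here do not say whether the labelling kept the strand, and without it signal from Fzd10 and from its opposite strand cannot be told apart.

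Sfrp2, a secreted antagonist of the SFRP family, measured 5.32 and 5.20 in the day 19 Cdkn2a/Braf melanocytes, 5.53 and 5.50 in the Cdkn2a-only melanocytes and 6.19 and 6.97 at day 50. It measured 6.47, 6.27 and 6.31 in the Lkb1/Braf proliferations, 8.75 and 7.54 in the Cdkn2a/Braf melanomas and 9.63 and 9.89 in the Cdkn2a/Braf/Lkb1 melanomas. The 4 melanomas were the highest arrays, those with the Lkb1 alteration above those without, and the day 19 melanocytes the lowest, under the dim mark. Against the proliferations Sfrp2 was higher by 3.41 in the Cdkn2a/Braf/Lkb1 melanomas (SE 0.31, adjusted p = 6.1e-05, 10.6-fold) and by 1.79 in the Cdkn2a/Braf melanomas (SE 0.31, adjusted p = 0.00338). It was higher in the Cdkn2a/Braf melanomas than at day 19 by 2.89 (SE 0.34, adjusted p = 0.000333) and than at day 50 by 1.57 (adjusted p = 0.00958). Each of these 4 calls was made under all alternatives and left-out arrays tried. Against day 19, 9 of 10 fibroblast genes and 4 of 6 pericyte and smooth muscle genes rose in the same melanomas. The fibroblast sum was 15120 to 16800 in the proliferations, 11110 to 12620 in the Cdkn2a/Braf melanomas and 11350 to 15920 in the Cdkn2a/Braf/Lkb1 melanomas. In the same order the pericyte and smooth muscle sum was 979 to 1273, 1104 to 1147 and 1723 to 2402. Against the proliferations 5 fibroblast genes rose and 2 fell in the Cdkn2a/Braf/Lkb1 melanomas (20.0% and 20.6% of all genes). In the Cdkn2a/Braf melanomas 2 rose and 1 fell (12.6% and 8.88%). With a common interquartile range these fibroblast splits became 1 and 5, and 2 and 6. Of the pericyte and smooth muscle genes 2 rose and 1 fell in the former genotype, and 2 rose and 2 fell in the latter. The part of these lists in the Sfrp2 differences was not tested.

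Between the melanoma genotypes Sfrp2 rose by 1.62 with the Lkb1 alteration (SE 0.34, adjusted p = 0.0395, 3.07-fold, n = 2 melanomas per genotype). That call was lost without the second Cdkn2a/Braf melanoma (adjusted p = 0.166), without either Cdkn2a/Braf/Lkb1 melanoma, under quantile normalization (0.094) and with a common interquartile range (0.14). Of 6 pericyte and smooth muscle genes, 2 rose in the same comparison (Rgs5 and Acta2), and their list summed to 1723 to 2402 against 1104 to 1147. Of 10 fibroblast genes 1 rose (Col1a1), with a median difference of 0.40 over the list, and the macrophage sum was 5158 to 6312 against 2674 to 2884. The part of these lists was not tested. Between day 50 and day 19 Sfrp2 rose by 1.32 (SE 0.34, adjusted p = 0.0221), a call lost without either day 19 array, without the second day 50 array, under quantile normalization (0.0506) and in a fit of the sorted cells alone (0.0526).

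Sfrp1 was already measurable in sorted melanocytes: 6.26 and 6.79 in day 19 Cdkn2a/Braf cells, 7.49 and 7.35 in Cdkn2a-only cells and 7.89 and 7.66 at day 50. It measured 8.93, 8.88 and 8.98 in the proliferations, 8.75 and 8.47 in the Cdkn2a/Braf melanomas and 9.86 and 10.31 in the Cdkn2a/Braf/Lkb1 melanomas. The day 19 Cdkn2a/Braf melanocytes were the lowest group without overlap, and the Cdkn2a/Braf/Lkb1 melanomas the highest. Sfrp1 rose from day 19 to day 50 by 1.25 (SE 0.20, adjusted p = 0.00242), under every alternative and left-out array tried, and its difference of -0.89 between the 2 genotypes at day 19 was not called (adjusted p = 0.16). Sfrp1 was 2.78-fold higher in the melanomas with the Lkb1 alteration than in those without (SE 0.20 on the log2 scale, adjusted p = 0.00622); without the second Cdkn2a/Braf melanoma the adjusted p was 0.0552 and the difference 1.34. Against the proliferations Sfrp1 was 1.16 higher in the Cdkn2a/Braf/Lkb1 melanomas (adjusted p = 0.00126), but 0.57 under quantile normalization (adjusted p = 0.0505) and 0.35 with a common interquartile range (adjusted p = 0.197). Sfrp1 was also higher in the Cdkn2a/Braf melanomas than at day 19 (adjusted p = 9.9e-05), under every alternative and left-out array tried, and than at day 50 by 0.84 (adjusted p = 0.0148), a call lost under quantile normalization, with a common interquartile range and without the first melanoma. Between day 50 and day 19 the sorted cells also differed in markers of other cells: 6 of 10 fibroblast genes rose and 1 fell, 4 of 10 keratinocyte genes and 7 of 8 endothelial genes rose, and the fibroblast sum went from 1340 to 1535 to 5482 to 6064. Their part in the rises of Sfrp1 and Sfrp2 was not tested.

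Sfrp4 ran the other way in the sorted cells. It measured 9.80 and 8.96 in the Cdkn2a-only melanocytes, 8.92 and 7.38 in the Cdkn2a/Braf melanocytes at day 19 and 5.71 and 6.22 at day 50, and the day 50 arrays lay below all 4 day 19 arrays. From day 19 to day 50 it fell by 2.18 (SE 0.54, adjusted p = 0.0185), a call lost without the first day 19 array (-1.41, adjusted p = 0.134), without the first day 50 array (-1.93, adjusted p = 0.0562) and in the fit of sorted cells alone (0.0777). In the lesions Sfrp4 measured 6.40, 6.10 and 6.05 in the proliferations, 7.61 and 7.38 in the Cdkn2a/Braf melanomas and 8.36 and 6.86 in the Cdkn2a/Braf/Lkb1 melanomas. Its call in the last group against the proliferations (1.43, adjusted p = 0.0428) was lost without the first melanoma, where the difference was 0.68. That call was also lost without each proliferation in turn, with a pseudocount of 16 and with the replicate block. Sfrp5 had a group mean under the dim mark throughout; it fell by 0.63 in the Cdkn2a/Braf/Lkb1 melanomas against the proliferations and by 0.78 in the Cdkn2a/Braf melanomas against day 50. The first call was lost under quantile normalization (-0.31), with a common interquartile range (-0.18) and without the first Cdkn2a/Braf/Lkb1 melanoma, and the second without the second Cdkn2a/Braf melanoma.

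Among the DKK genes, Dkk2 set both melanoma genotypes apart from everything else. It measured 10.95 and 9.86 in the Cdkn2a/Braf melanomas and 10.62 and 9.63 in the Cdkn2a/Braf/Lkb1 melanomas. It measured 7.23, 7.25 and 7.31 in the proliferations, 6.52 and 8.00 in day 19 Cdkn2a/Braf melanocytes, 6.20 and 6.61 in Cdkn2a-only melanocytes and 6.86 and 6.99 at day 50. The lowest melanoma (9.63) lay above the highest other array (8.00). Dkk2 was higher in the Cdkn2a/Braf melanomas by 3.48 against day 50 (SE 0.49, adjusted p = 0.000972), by 3.15 against day 19 (SE 0.49, adjusted p = 0.00177) and by 3.14 against the proliferations (SE 0.44, 8.83-fold), and in the Cdkn2a/Braf/Lkb1 melanomas by 2.86 against the proliferations (SE 0.44, adjusted p = 0.00103, 7.28-fold). These 4 calls were made under every alternative and left-out array tried. Between the melanoma genotypes the difference was -0.28 (SE 0.49) and was not called. The dermal papilla list summed to 8368 to 10310 and 10340 to 10430 in the melanomas and 867 to 1159 in the proliferations. Of its 7 genes, 3 rose and 1 fell in the Cdkn2a/Braf melanomas against the proliferations (12.6% and 8.88% of all genes). In the Cdkn2a/Braf/Lkb1 melanomas 3 rose and 2 fell (20.0% and 20.6%). Crabp1 and Sox2 rose and the defining gene Corin fell in both genotypes, and Alx4 fell in the latter. From day 19 to day 50 Sox2 rose and Crabp1 fell, and at day 19 Crabp1 rose with mutant Braf. Dkk2 was called in neither of these 2 comparisons. The part of this list was not tested.

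Dkk3, the divergent member, measured 8.57 and 8.60 in the day 19 Cdkn2a/Braf melanocytes, 8.74 and 8.96 in the Cdkn2a-only melanocytes and 7.80 and 7.49 at day 50. It measured 6.40, 6.42 and 6.24 in the proliferations, 7.79 and 8.08 in the Cdkn2a/Braf melanomas and 7.71 and 6.52 in the Cdkn2a/Braf/Lkb1 melanomas. The day 19 arrays were the highest and the proliferations the lowest. Dkk3 was higher in the Cdkn2a/Braf melanomas than in the proliferations by 1.58 (SE 0.28, adjusted p = 0.00348), under every alternative and left-out array tried. From day 19 to day 50 it fell by 0.94 (adjusted p = 0.0482), a call lost in every run without 1 array, under quantile normalization and with a common interquartile range. Dkk1 and Dkk4 had group means under the dim mark throughout.

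**Figure D4:**
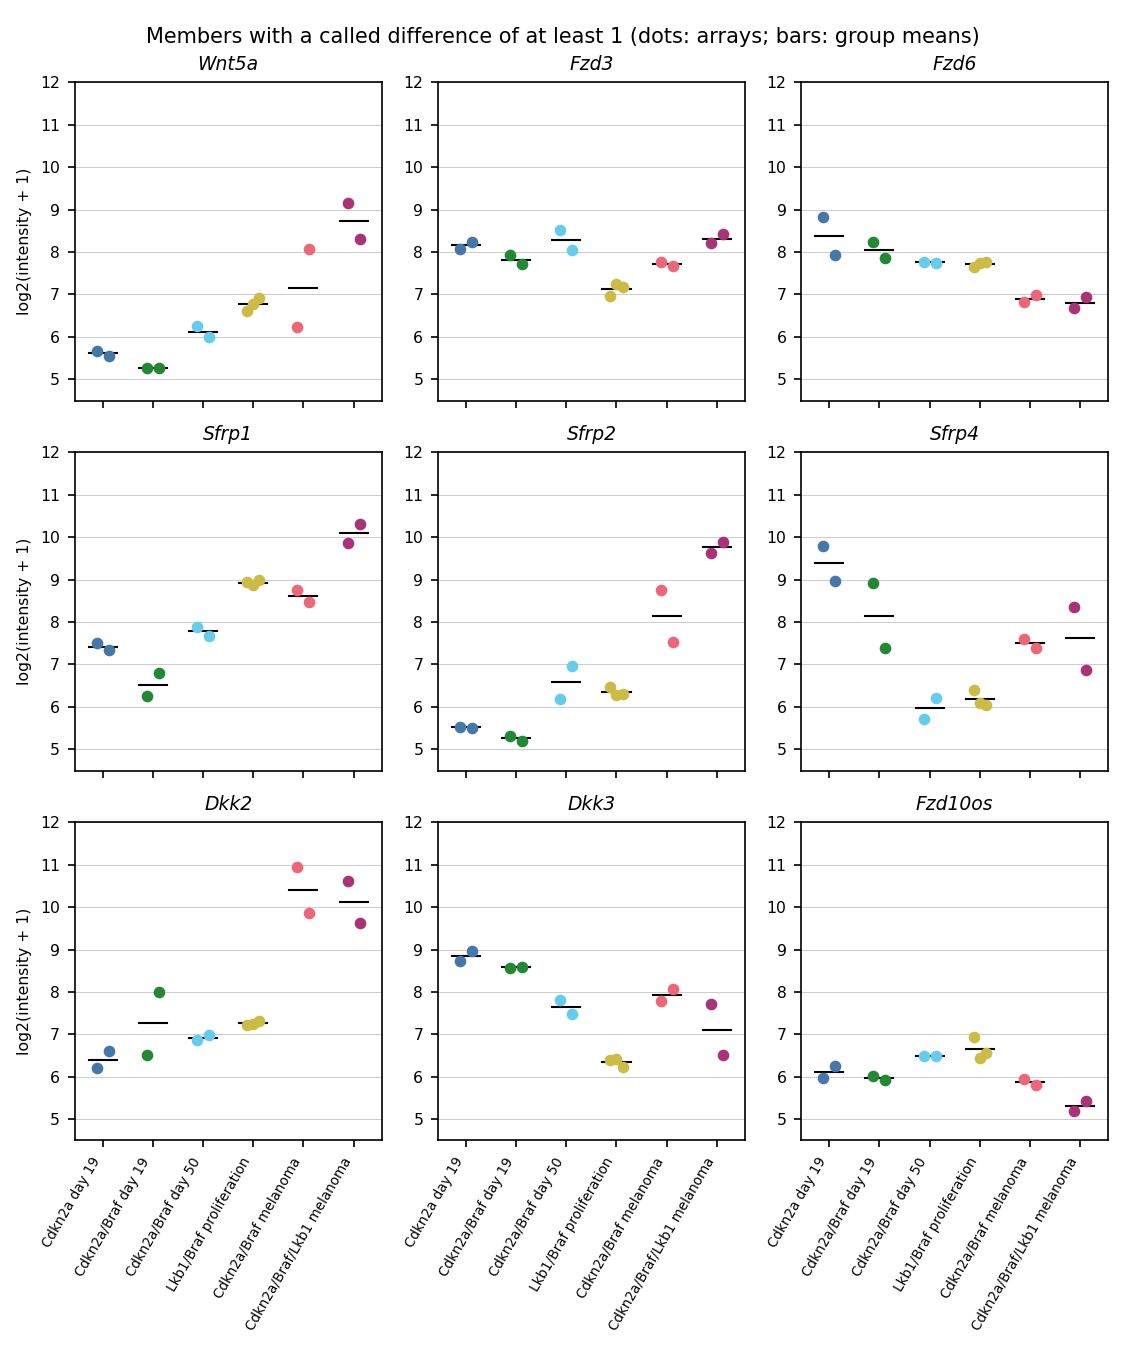
Log2(intensity + 1) of the 9 members called with a difference of at least 1 in some comparison, in each of the 13 arrays (dots) with group means (bars). The 4 melanomas stand apart for Dkk2 (9.63 to 10.95) and Sfrp2 (7.54 to 9.89), and the day 50 melanocytes are low for Sfrp4 (5.71 and 6.22).

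The rest of the pathway was followed in 8 gene lists, of which all genes but Tcf7 were measured. In the list of 13 measured beta-catenin targets, 5 fell from day 19 to day 50 and 1 rose, where 14.5% of all genes fell and 11.1% rose. The feedback inhibitor Nkd1 measured 10.24 and 9.87 at day 19 and 7.48 and 7.42 at day 50 and fell by 2.60 (adjusted p = 0.000168). Lef1, the partner of beta-catenin that is a target itself, measured 9.57 and 9.78 at day 19 and 7.12 and 6.74 at day 50 and fell by 2.75 (adjusted p = 0.000716). The arrays of the 2 days stood far apart for both genes, and the Cdkn2a-only melanocytes lay with the day 19 arrays (10.40 and 10.13 for Nkd1, 9.80 and 9.79 for Lef1). Znrf3, a ligase that clears Frizzled receptors, fell by 1.07, and these 3 target calls were made under every alternative and left-out array tried. So were those of the coreceptor Lrp6, which fell by 1.95, of Dact1, which binds Dishevelled and fell by 2.63, and of the tankyrase Tnks, which destabilises Axin and fell by 1.39.

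Other calls of the day 50 comparison were less firm. The stem cell marker Lgr5 rose by 2.00, but measured 9.16 and 7.41 at day 50, and without the first of these arrays the difference was 1.12 (adjusted p = 0.081); it was also not called without either day 19 array. Wls, the carrier of WNT proteins, fell by 1.06, a call lost without the first day 50 array (-0.58, adjusted p = 0.139), without either day 19 array and under quantile normalization (-0.62). Cd44 fell by 0.99, a call lost without either day 19 array or the first day 50 array. Mitf, which the melanocyte list also holds, fell by 0.52 and was called as higher (0.51, adjusted p = 0.0383) with a common interquartile range; any single array left out ended its call. The list's 1 rise and 5 falls became 0 and 3 without either day 19 array or the first day 50 array, 2 and 3 under quantile normalization and 4 and 3 with a common interquartile range. In the same melanocytes 8 of 12 genes of the melanocyte list fell; its part in these differences was not tested. Axin2, the commonly used target, was called in no comparison, except against day 50 without the second day 50 array, and measured 8.27 and 8.64 at day 19 and 8.81 and 7.67 at day 50.

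In the Cdkn2a/Braf melanomas against day 19, Lef1 and Nkd1 fell by 3.34 and 2.88. Of the 13 targets 5 fell in all, where 5.46% of all genes fell. Ccnd1, which drives the cell cycle, was the 1 that rose (1.96), where 7.17% of all genes rose. In the same comparison 11 of 12 melanocyte genes fell, and their sum went from 51090 to 54580 down to 846 to 1239; its part was not tested. Against the proliferations 3 targets rose and 4 fell in the Cdkn2a/Braf melanomas, where 12.6% of all genes rose and 8.88% fell. Both counts were smaller without the first melanoma and without the second. In the Cdkn2a/Braf/Lkb1 melanomas 3 rose and 2 fell, near the 20.0% and 20.6% of all genes that did. Among the risers was Notum, an enzyme that strips the lipid from WNT proteins, which measured 6.28, 6.07 and 6.11 in the proliferations and 8.99 and 7.91 in these melanomas and rose by 2.29 (adjusted p = 0.000262), under every alternative and left-out array tried.

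Of the 12 other secreted or membrane antagonists, 2 rose and 5 fell in the Cdkn2a/Braf/Lkb1 melanomas against the proliferations, where 20.0% of all genes rose and 20.6% fell. In the Cdkn2a/Braf melanomas 2 rose and 2 fell, where 12.6% of all genes rose and 8.88% fell. Sostdc1, which binds Lrp6 and BMP ligands and is a gene of the hair follicle, fell by 2.88 and 2.39 in the respective genotypes, under every alternative and left-out array tried. Frzb, an SFRP relative, rose by 1.26 and 1.58; the first call was lost without the first Cdkn2a/Braf/Lkb1 melanoma (0.51, adjusted p = 0.152) or the first proliferation, and the second without the first Cdkn2a/Braf melanoma (adjusted p = 0.0897). Wls rose by 1.13 and 1.21 in the respective genotypes, but by 0.55 and 0.73 under quantile normalization, where neither was called.

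Between the melanoma genotypes the 1 pathway gene called was the R-spondin receptor Lgr4, which fell by 1.57 with the Lkb1 alteration (adjusted p = 0.0472); it was not called with arrays centred on their medians (adjusted p = 0.0516), nor without the second melanoma of either genotype. At day 19, Myc and Ccnd1, both also targets of ERK signalling, rose by 1.82 and 1.42 in Cdkn2a/Braf over Cdkn2a-only melanocytes. Without the first Cdkn2a-only array or the second Cdkn2a/Braf array neither was called, nor was either in the fit of sorted cells alone (adjusted p = 0.382 and 0.45).

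**Figure D5:**
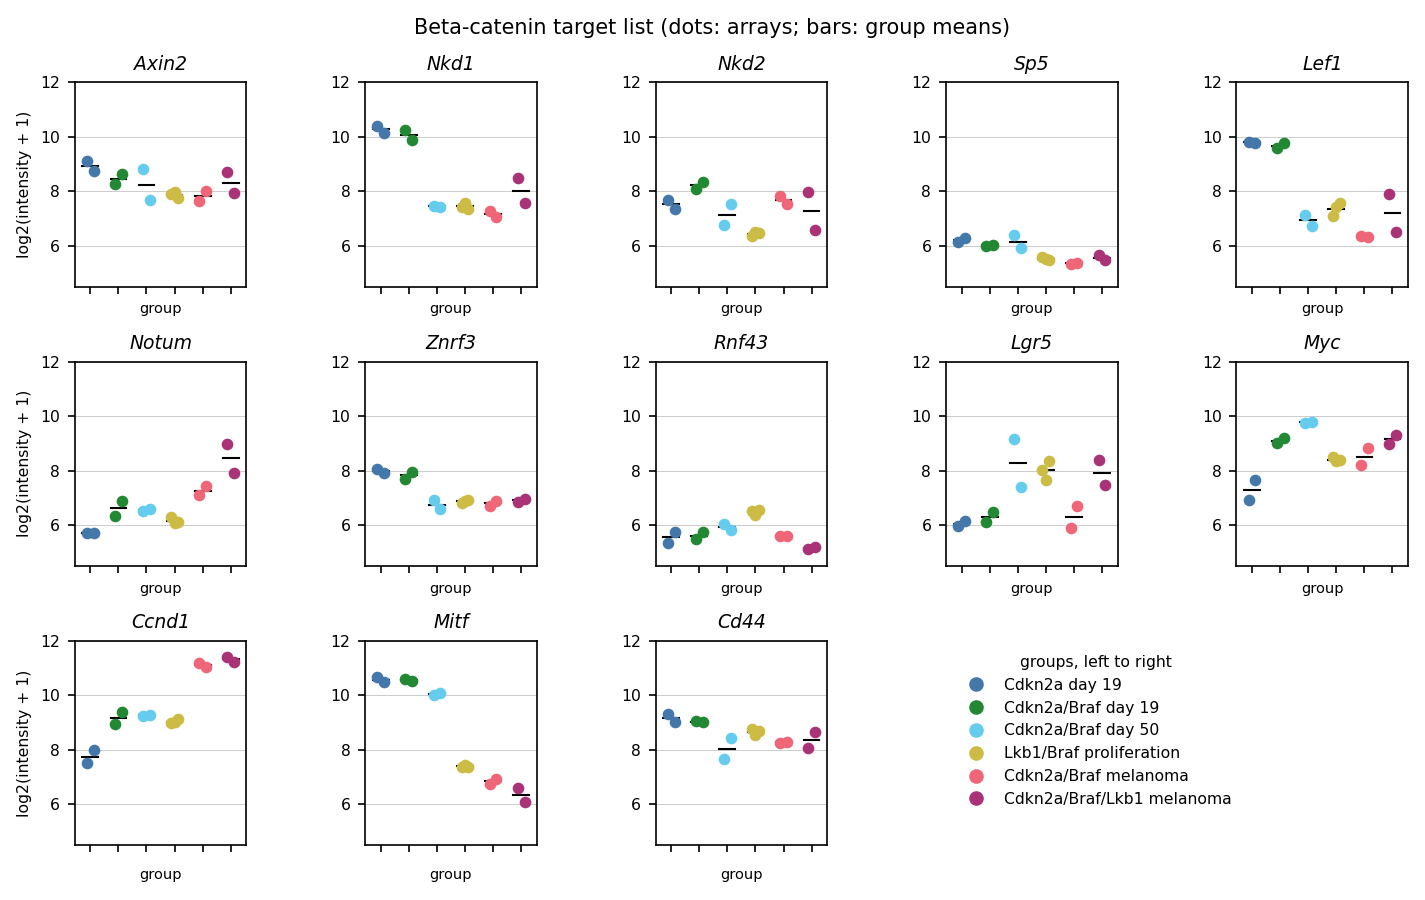
Log2(intensity + 1) of the 13 measured genes of the beta-catenin target list in each of the 13 arrays (dots), with group means (bars) and groups in the order of the legend. Nkd1 and Lef1 are high in the day 19 melanocytes and lower in all other groups, Axin2 overlaps between groups, and Notum is highest in the Cdkn2a/Braf/Lkb1 melanomas (8.99 and 7.91).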

How the data were processed

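The deposited table held linear array intensity values for 34760 probe sets in 13 arrays (3.35 to 17698), per the file headers and the values; the submitters' processing notes name RMA, with no version, and the sources used here give no genome build. Per the labels' protocols, RNA was extracted with Qiagen RNeasy, and NuGEN's Ovation V2 and Encore kits served to amplify, fragment and label it. Of the probe sets, 21640 name 1 gene in GEO's platform annotation, 1321 name several (left out) and 11799 are unnamed here; 21553 were matched to RefSeq by Entrez number.

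Intensities were turned into log2(intensity + 1) without further scaling. All 13 arrays entered 1 limma fit (3.58.1, R 4.3.3) with 6 group means and 7 residual degrees of freedom; limma's tests were adjusted by Benjamini-Hochberg over 19937 genes at 0.05. The labels call the samples biological replicates; with 2 or 3 arrays a group their number limits the precision. The members, gene lists and tests were chosen with earlier results of these data known. Values by array are printed for members called with a log2 difference of at least 1 in some comparison; other named genes come from the lists. Alternatives were scaling (median centring, quantile normalization, a common interquartile range), a pseudocount of 16, a filter on dim genes (log2 of 6 in 2 arrays), the mean of probe sets, limma's trend and robust options, sorted cells or tissue alone, a replicate block and leaving out each array. The fit was tested on simulated data in which a gene had the same spread in every group. That setting leaves out the wider spread between the day 50 samples, so it cannot speak for their comparisons.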

Additional observations from a re-analysis of the deposited data

How the results depend on the processing

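Of the 59 member calls, 603 of 778 values under alternatives were in the same direction and called, 173 in the same direction and not called, and 2 in the other direction: in the Cdkn2a/Braf/Lkb1 melanomas against the Lkb1/Braf proliferations, Wnt8a at 0.21 and Wnt8b at 0.29 with a common interquartile range, neither called. The count of calls stayed within 1.5 times of the reported one under every alternative other than leaving out an array, except between the melanoma genotypes, where 2 calls became 1 under quantile normalization, a common interquartile range and the replicate block, Sfrp2 being lost each time. Without 1 array, the counts ran from 1 to 10 (day 50 against day 19), 0 to 0 (day 19 with and without Braf), 1 to 3 (melanoma genotypes), 11 to 21 and 3 to 6 (Cdkn2a/Braf/Lkb1 and Cdkn2a/Braf melanomas against proliferations), 4 to 13 (against day 50) and 3 to 5 (against day 19). Sorted cells or tissue alone could give no value for the 2 comparisons of melanoma with sorted melanocytes.

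The replicate numbers were not used as a pairing in the reported fit. The deviations of 30 same-numbered pairs correlated at -0.117 to 0.0933. This does not decide whether the samples were paired, since deviations in a group of 2 mirror each other and many of these values repeat. With the replicate block the counts in the same order were 4, 0, 1, 20, 5, 9 and 5. With the numbers crossed between the melanoma genotypes, chosen after seeing the data, the count was 1. Scaling moved the share of all-gene calls that were higher from 43.4% to 24.06% between day 50 and day 19 (median centring), from 49.33% to 63.16% and 65.53% for the Cdkn2a/Braf/Lkb1 melanomas against the proliferations (median centring and a common interquartile range), from 58.62% to 45.6% for the Cdkn2a/Braf melanomas against them (quantile normalization), from 56.79% to 43.97% against day 19 (median centring) and from 71.37% to 59.25% between melanoma genotypes (a common interquartile range). The median of all genes moved with it, from 0.17 to -0.05 between day 50 and day 19, from -0.04 to 0.16 and from -0.02 to 0.14 for the melanomas against the proliferations and from -0.04 to -0.15 against day 19, all with a common interquartile range. With 2 arrays in most groups, differences of dim members are limited by signal over background.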
